A study of Mus musculus with 12 samples.

Results

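MYC and 34 genes of ribosome production and growth were followed across the study, 35 genes out of 51912 in the count table. They were taken by symbol from a list of MYC, the nucleolar machinery that makes and processes ribosomal RNA, and a few growth and translation genes. All 35 were found once and all 35 passed the filter on low counts. RNA-seq was performed on bone marrow of C57BL/6 mice, sorted for cells without mature lineage antigens. The 4 groups of 3 libraries carried retroviral vectors for both mutants (CEBPA V314VW + CSF3R T618I), for CSF3R T618I, for CEBPA V314VW, or an empty vector. CSF3R T618I is an activating mutant of the G-CSF receptor, and CEBPA V314VW is a C-terminal mutant of a transcription factor of granulocyte development. Cells of every group, the empty vector group included, were grown with interleukins, SCF and medium conditioned by WEHI cells while they were transduced, and were sorted as GFP/RFP positive pools and frozen. All were thus cytokine-stimulated, and the mutants were driven by a retroviral vector and not by their own loci. The study asked how the mutants cooperate, using a linear model with an interaction term. Replicates are called biological in the design text, but no source says whether libraries with one letter came from the same mouse or experiment, and p-values measure the spread between these libraries only.

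MYC is a transcription factor that pairs with MAX and binds the E-box, and it is known for raising the output of ribosomes and protein in dividing cells. RNA polymerase I transcribes ribosomal DNA in the nucleolus. The precursor RNA is modified by small nucleolar ribonucleoproteins (snoRNPs), of the box C/D class for methylation and the box H/ACA class for pseudouridylation, and is cut and folded into the small and large ribosomal subunits by assembly factors. In bone marrow this programme is high in proliferating progenitors and declines as granulocytes mature.

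Libraries held 44210071 to 67431235 counts, and the 35 genes took 1.57% to 1.86% of them. Levels are given as CPM, a gene's counts scaled to a common total of counts in tested genes, with the libraries adjusted to each other by trimmed means (TMM). A gene rose or fell only where edgeR's quasi-likelihood test, adjusted by the Benjamini-Hochberg method over all 16360 tested genes, gave a p under 0.05, whatever the size of the change. CSF3R T618I libraries A and C stood apart from each other, with long genes low in A and high in C, and counts are given with and without them. Markers of other cells moved with the groups. The summed level of 8 red cell genes ranged over 266 to 275 CPM with both mutants, 547 to 992 CPM with CSF3R T618I, 40.4 to 47.6 CPM with CEBPA V314VW and 62.3 to 71.4 CPM with empty vector, and none of the 8 was at 0 in any group. For 7 late neutrophil genes the range was 128 to 172 CPM with both mutants, 319 to 966 CPM with CSF3R T618I, 19.2 to 26.4 CPM with CEBPA V314VW and 55.4 to 350.0 CPM with empty vector. None of the 7 was at 0 in all 3 libraries of a group, but the lowest values of Mmp9 and Retnlg with CEBPA V314VW were 0. Of the 7, 4 averaged over 1 CPM with both mutants, 7 with CSF3R T618I, 3 with CEBPA V314VW and 5 with empty vector. All 8 stem and progenitor genes averaged over 1 CPM in every group, and their sums were 278 to 295 CPM with both mutants, 202 to 293 CPM with CSF3R T618I, 461 to 565 CPM with CEBPA V314VW and 445 to 581 CPM with empty vector. These sums hide opposed genes. With CEBPA V314VW against empty vector 6 of the 8 rose and 1 fell (9.50% and 7.68% of all tested genes). Mecom averaged 73.1 CPM with CEBPA V314VW and 4.78 CPM with empty vector, and Cd34 84.0 and 181 CPM. With both mutants against CSF3R T618I 5 rose and 2 fell (8.43% and 10.1% of all tested genes). The sum of 7 mast cell and basophil genes was 688 to 807 CPM with both mutants, 1438 to 1859 CPM with CSF3R T618I, 1975 to 2099 CPM with CEBPA V314VW and 2954 to 3814 CPM with empty vector, and that of 6 monocyte and macrophage genes was 1263 to 1296 CPM with both mutants, 334 to 579 CPM with CSF3R T618I, 644 to 870.3 CPM with CEBPA V314VW and 425 to 593 CPM with empty vector, with no gene at 0 in either list. In the monocyte list F13a1 averaged 1006 CPM with both mutants and 82.4 CPM with empty vector, and Ly6c2 99.9 and 306 CPM. With both mutants 2 of these 6 genes rose and 4 fell against empty vector, where 10.7% of all tested genes rose and 10.7% fell. Of 6 B cell and 6 T cell genes, 1 each averaged over 1 CPM in each group. The part of these cells in the results was not tested, and in bulk libraries fewer cells of a type and less RNA per cell cannot be told apart.

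Per coding kilobase the most abundant gene was Eif5a, a translation factor that carries hypusine, at 8190 CPM per kilobase averaged over the 12 libraries. Npm1 (nucleophosmin, 1456), Eif4a1 (the RNA helicase of the cap-binding complex, 1261) and Ncl (nucleolin, 1163) followed on the same scale. Counts cover whole exons, but are divided here by coding length alone, so the order depends on that divisor. Ncl has 2121 coding bases of 8202 exonic bases, and Nop10, a small core protein of box H/ACA snoRNPs at 1024 CPM per kilobase, has 192 of 1109. Myc stood at 429 and Utp20, a scaffold of the small subunit processome, at 11.4 CPM per kilobase. Wdr74, a factor of large subunit maturation, was at the edge of detection at 0.402 CPM per kilobase, with 12 to 39 counts per library, and carries little weight in any comparison. The strand setting of the counting is not given in the sources used here. Exons of an antisense gene covered 34.2% of the exonic bases of Tsr1 (the gene Srr) and 20.9% of those of Noc2l (Samd11), so both levels are uncertain. For the other 33 genes the overlap was at most 4.72%.

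**Figure D1:**
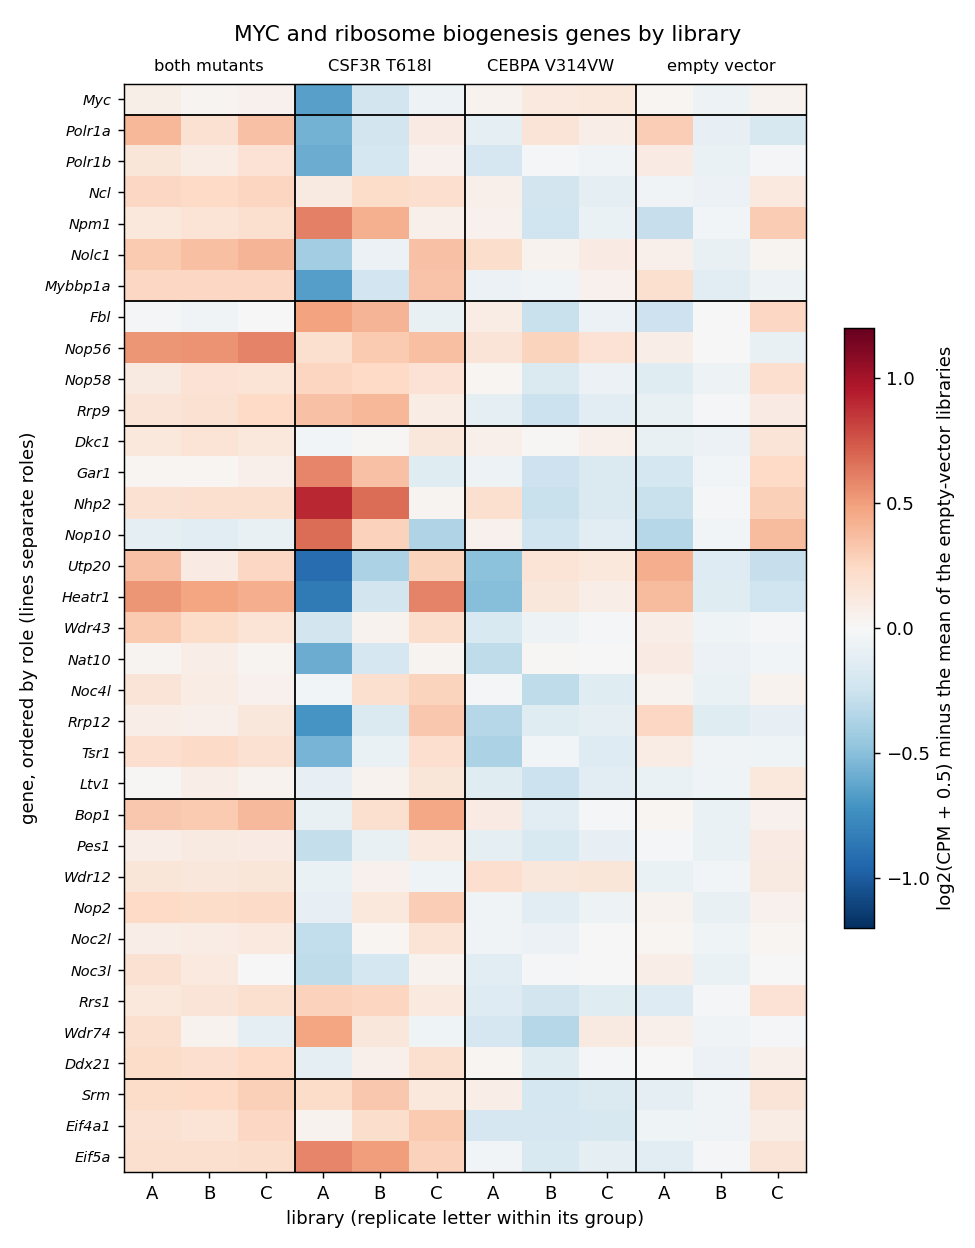
Level of each of the 35 genes (rows, ordered by role) in each of the 12 libraries (columns), as log2(CPM + 0.5) minus the mean of the empty vector libraries. The 3 libraries with both mutants resemble each other, whereas CSF3R T618I library A is low and library C high for long genes such as Utp20, Heatr1 and Mybbp1a.

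The E-box was looked for in the promoters because MYC binds it and most of the genes had the same sign of change in the comparison described first. RefSeq promoter windows (build GRCm38.p6) matched 28 of the 35 genes, Myc not among them. The letters CACGTG, a palindrome that reads alike on both strands, were present in the 250 bases before a start of 3 of the 28 genes, Nop2, Eif4a1 and Eif5a. That is 10.7% of the matched genes, set against 6.86% of all genes in the promoter table and 9.53% of those tested for expression. Windows are shown for Nop2, an rRNA methyltransferase of the large subunit (chr6:125131783-125131868, + strand), and for Eif4a1 (chr11:69672567-69672652, - strand). Both are written in the direction of the gene, and capitals mark the E-box, 54 bases before the start of Nop2 and 183 bases before that of Eif4a1.
Nop2: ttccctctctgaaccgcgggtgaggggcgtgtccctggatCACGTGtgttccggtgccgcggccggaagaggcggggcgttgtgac
Eif4a1: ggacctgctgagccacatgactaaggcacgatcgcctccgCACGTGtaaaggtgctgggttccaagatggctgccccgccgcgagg
A match is a description of the letters only, and the other 25 genes lack them in these windows.

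Myc itself (ENSMUSG00000022346, chromosome 15, 61985391 to 61990374, mm10, with coordinates from GENCODE here and below) passed the test in no comparison. It had 625, 611 and 619 CPM with both mutants, 379.9, 511 and 571 CPM with CSF3R T618I, 615, 645 and 649.5 CPM with CEBPA V314VW, and 603, 571 and 613 CPM with empty vector. The CSF3R T618I libraries were the lowest and spread most, and they lay below those with both mutants and below those with empty vector without overlap, although CSF3R T618I library C and empty vector library B were under 1 CPM apart. Relative to empty vector Myc had a log2 fold change of -0.29 ± 0.12 (SE, n = 3 each) with CSF3R T618I (edgeR adjusted p = 0.118), and the value with both mutants against CSF3R T618I was 0.34 ± 0.12 (adjusted p = 0.0703). Without CSF3R T618I library C these were -0.42 (adjusted p = 0.00839) and 0.48 (adjusted p = 0.00421), and without CSF3R T618I library A, the lowest of the 12, they were -0.14 (adjusted p = 0.319) and 0.19 (adjusted p = 0.169). With total counts in place of TMM they were -0.40 (adjusted p = 0.0260) and 0.42 (adjusted p = 0.0249). Over all alternatives the adjusted p spanned 0.00839 to 0.319 in the comparison of CSF3R T618I with empty vector and 0.00421 to 0.181 in the comparison of both mutants with CSF3R T618I. With both mutants against CEBPA V314VW, Myc differed by -0.04 (95% interval -0.31 to 0.22).

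**Figure D2:**
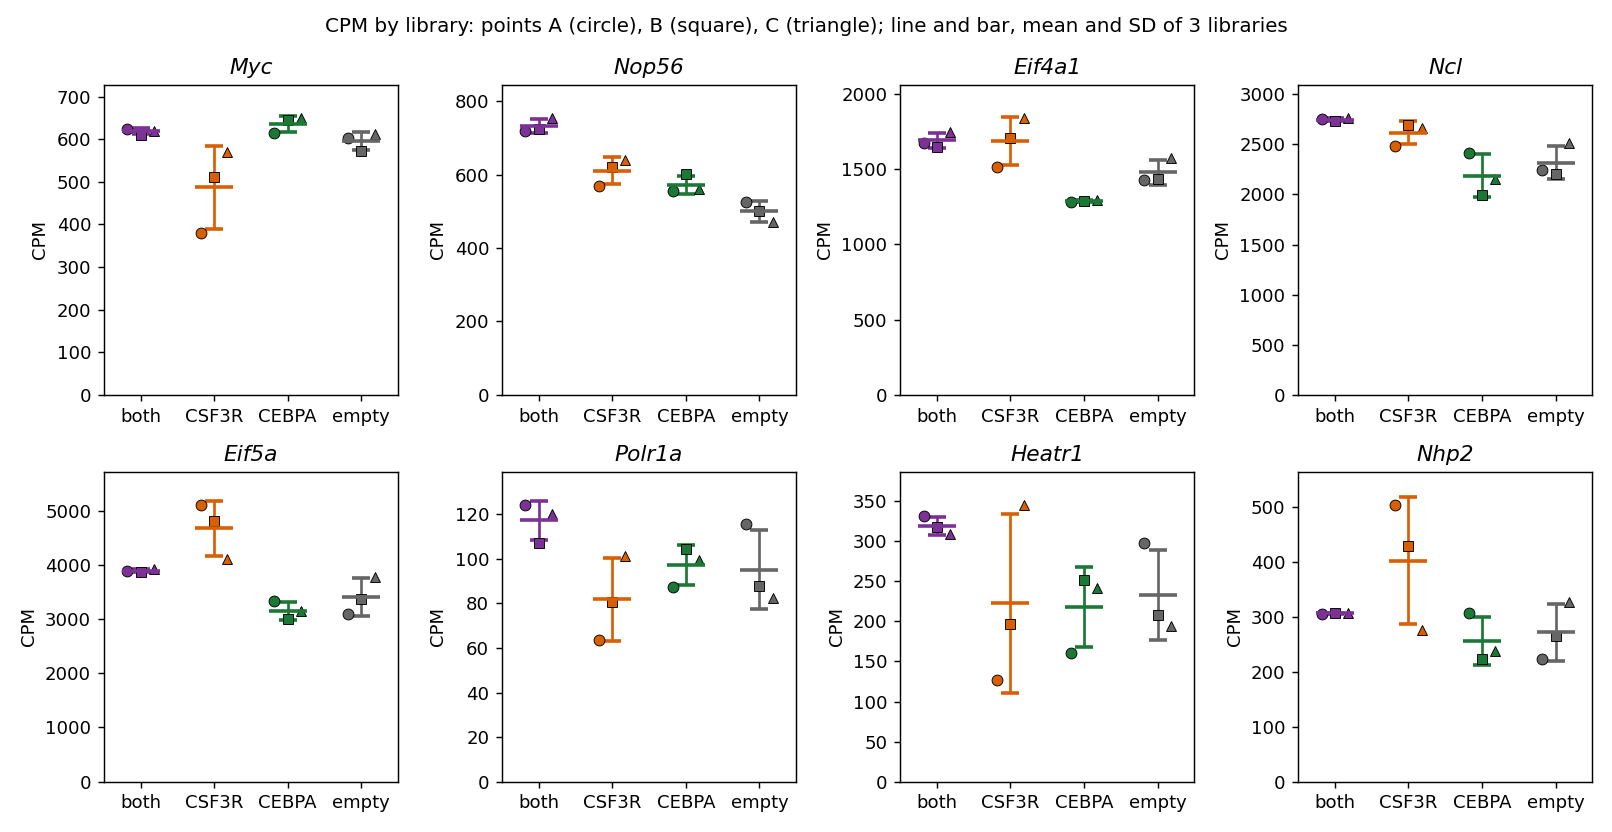
CPM of 8 genes in every library of each group (circles, squares and triangles for libraries A, B and C, with the mean and SD of 3 libraries), on axes that start at 0. Nop56 is highest with both mutants (719.5 to 754 CPM), Eif4a1 is lowest with CEBPA V314VW (1281 to 1294 CPM), and the points of Heatr1 and Nhp2 spread widely with CSF3R T618I.

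Cells with both mutants were compared with cells with CEBPA V314VW to find what the receptor mutant adds to the CEBPA mutant. Most of the genes had higher values with both mutants, by small amounts. Of the 35 genes 6 rose and 0 fell (16 and 0 at an unadjusted p under 0.05, which 28.7% of all tested genes had in either direction), and 32 had a positive log2 fold change. DESeq2 gave 11 higher and 0 lower, where 9.56% of all tested genes were higher, and limma voom 18 and 0, where 13.6% were. The 6 make 17.1% of the list, where 7.79% of all tested genes rose and 10.1% fell. The median log2 fold change of the list was 0.27, against -0.02 over all tested genes, and none of the 35 reached a log2 fold change of 1. For 27 of the 35 every library with both mutants lay above every CEBPA V314VW library, an order found in 22.0% of all tested genes, and with total counts in place of TMM it held for 22 genes (15.7% of all tested genes). No gene of the list lay below without overlap under TMM, but the matching share of all tested genes is not given here, so this count cannot be judged. With total counts 2 genes of the list lay below (29.5% of all tested genes). In the same comparison 7 of 8 red cell genes and 3 of 7 late neutrophil genes rose, and 6 of 8 stem and progenitor, 6 of 7 mast cell and basophil, 3 of 5 megakaryocyte and 2 of 4 eosinophil genes fell. In the monocyte list of 6, 1 gene rose and 2 fell, and in the primary granule list of 5, 2 rose and 1 fell. Their part in the values of the 35 genes was not tested.

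Nop56 (ENSMUSG00000027405, chromosome 2, 130274430 to 130279313), a core protein of box C/D snoRNPs, had 719.5, 724 and 754 CPM with both mutants, 569, 619.6 and 641 CPM with CSF3R T618I, 554, 601 and 561 CPM with CEBPA V314VW, and 526, 502 and 471 CPM with empty vector. No library with both mutants overlapped any other group. Against CEBPA V314VW it rose by a log2 fold change of 0.36 ± 0.08 (1.28-fold, adjusted p = 0.00900). Eif4a1 (ENSMUSG00000059796, chromosome 11, 69666936 to 69672423) had 1674, 1649 and 1749 CPM with both mutants, 1517, 1706 and 1838 CPM with CSF3R T618I, 1281, 1286 and 1294 CPM with CEBPA V314VW, and 1425, 1435 and 1572 CPM with empty vector. The CEBPA V314VW libraries lay below all 9 others, and both mutants exceeded them by 0.39 ± 0.09 (1.31-fold, adjusted p = 0.00645). Ncl (ENSMUSG00000026234, chromosome 1, 86344719 to 86359400), which coats nascent ribosomal RNA, had 2751, 2730.0 and 2761 CPM with both mutants, 2486, 2695 and 2665 CPM with CSF3R T618I, 2415, 1992 and 2153 CPM with CEBPA V314VW, and 2241, 2205 and 2508 CPM with empty vector. Libraries with both mutants were the highest of the 12, and Ncl rose against CEBPA V314VW by 0.33 ± 0.09 (1.26-fold, adjusted p = 0.0225).

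Rrp9, Rrs1 and Srm were the other genes that rose, and in each all libraries with both mutants lay above those with CEBPA V314VW. Rrp9 had 113, 116 and 119.9 CPM with both mutants and 94.3, 84.9 and 92.7 CPM with CEBPA V314VW, Rrs1 192, 196 and 201 CPM with both mutants and 157, 151 and 159 CPM with CEBPA V314VW, and Srm 711, 719 and 745 CPM with both mutants and 642, 525 and 541 CPM with CEBPA V314VW. Their values were, for Rrp9, a protein of the box C/D snoRNP that guides early cleavage, a log2 fold change of 0.36 (adjusted p = 0.0243), for Rrs1, a factor of large subunit assembly, 0.33 (adjusted p = 0.0298), and for Srm, spermidine synthase, 0.35 (adjusted p = 0.0344). By role, 1 of 6 RNA polymerase I and scaffold genes, 2 of 4 box C/D genes, 0 of 4 box H/ACA genes, 0 of 8 small subunit genes, 1 of 9 large subunit genes and 2 of 3 growth genes rose. Medians were nonetheless alike across most roles, at 0.26 for the polymerase and scaffold genes, 0.29 for box C/D, 0.28 for the small subunit, 0.27 for the large subunit and 0.35 for growth, and lower at 0.15 for box H/ACA. The differences between roles were not tested. Heatr1, a small subunit processome protein, had the largest value of the list (0.55, 95% interval -0.09 to 1.19) and did not pass, with 332, 317 and 309 CPM with both mutants and 161, 251 and 242 CPM with CEBPA V314VW. Wdr43, the most abundant small subunit gene by CPM, had 558, 521 and 501 CPM with both mutants and 396, 429 and 445 CPM with CEBPA V314VW (0.32, adjusted p = 0.0634). Dkc1, the pseudouridine synthase of box H/ACA snoRNPs, had 386, 397 and 386 CPM with both mutants and 369.5, 356 and 368 CPM with CEBPA V314VW (0.09, adjusted p = 0.559). Noc2l, an exporter of large subunit precursors, had 420.1, 422 and 432 CPM with both mutants and 387, 379 and 399 CPM with CEBPA V314VW (0.13, adjusted p = 0.482). The genes with negative values were Myc (-0.04), Nop10 (-0.01) and Wdr12 (-0.02), a partner of Bop1 and Pes1 in large subunit processing.

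Npm1, the nucleolar chaperone, averaged 1305 ± 27.8 CPM with both mutants, 1516 ± 279 CPM with CSF3R T618I, 1098 ± 112 CPM with CEBPA V314VW and 1182 ± 243 CPM with empty vector. Nolc1, a nucleolar chaperone of snoRNPs, had 459.8 to 491 CPM with both mutants, 275.5 to 470.5 CPM with CSF3R T618I, 379 to 427 CPM with CEBPA V314VW and 347 to 384 CPM with empty vector. Both were higher with both mutants than with CEBPA V314VW in every library, and neither passed (Npm1 0.25, adjusted p = 0.338, and Nolc1 0.25, adjusted p = 0.323). Among large subunit factors, Nop2 averaged 284 ± 2.39 CPM with both mutants and 230.3 ± 7.07 CPM with CEBPA V314VW (0.31, adjusted p = 0.0515). Bop1, which works in rRNA processing with Pes1 and Wdr12, averaged 306 ± 8.69 CPM with both mutants and 239 ± 18.7 CPM with CEBPA V314VW (0.36, adjusted p = 0.0651). Ddx21, a nucleolar RNA helicase, averaged 289.6 ± 3.65 CPM with both mutants and 241 ± 14.4 CPM with CEBPA V314VW (0.27, adjusted p = 0.0668). These 3 were just short of the threshold, with groups that did not overlap. In the small subunit group the values spanned 0.14 for Nat10, the RNA cytidine acetyltransferase, to 0.55 for Heatr1, and all 8 were positive. Of genes not yet given, Tsr1, a late factor of the small subunit, had 0.39, Rrp12, which helps export both subunits, 0.29, Noc4l 0.25 and Ltv1 0.23 in that group, each on the log2 fold change scale. Among the other roles Polr1b, another large subunit of RNA polymerase I, had 0.22, Mybbp1a, a nucleolar protein that binds MYB, 0.27, Nop58, the partner of Nop56, 0.22, Gar1, a box H/ACA core protein, 0.20, Pes1 0.23, and Noc3l 0.14. None of these passed.

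The count of 6 moved with the way the data were fitted and scaled. Fitting the compared groups only gave 24 genes (14.9% of all tested genes rose) and total counts gave 2 (6.43%), with the direction the same in each of the 6 genes. Leaving out a library gave 12 without CSF3R T618I A (9.26% of all tested genes) and 13 without CSF3R T618I C (10.9%), neither of which is in the comparison. It gave 1 without library C with both mutants (5.36%), and 2 each without library A (5.73%) or B (5.48%) with both mutants. Without CEBPA V314VW library B (5.95%) or C (6.06%) it also gave 2 each. Eif4a1 passed under all 21 alternatives and Nop56 under 20 of them. Ncl passed under 13, Rrp9 under 13, Srm under 12 and Rrs1 under 11.

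**Figure D3:**
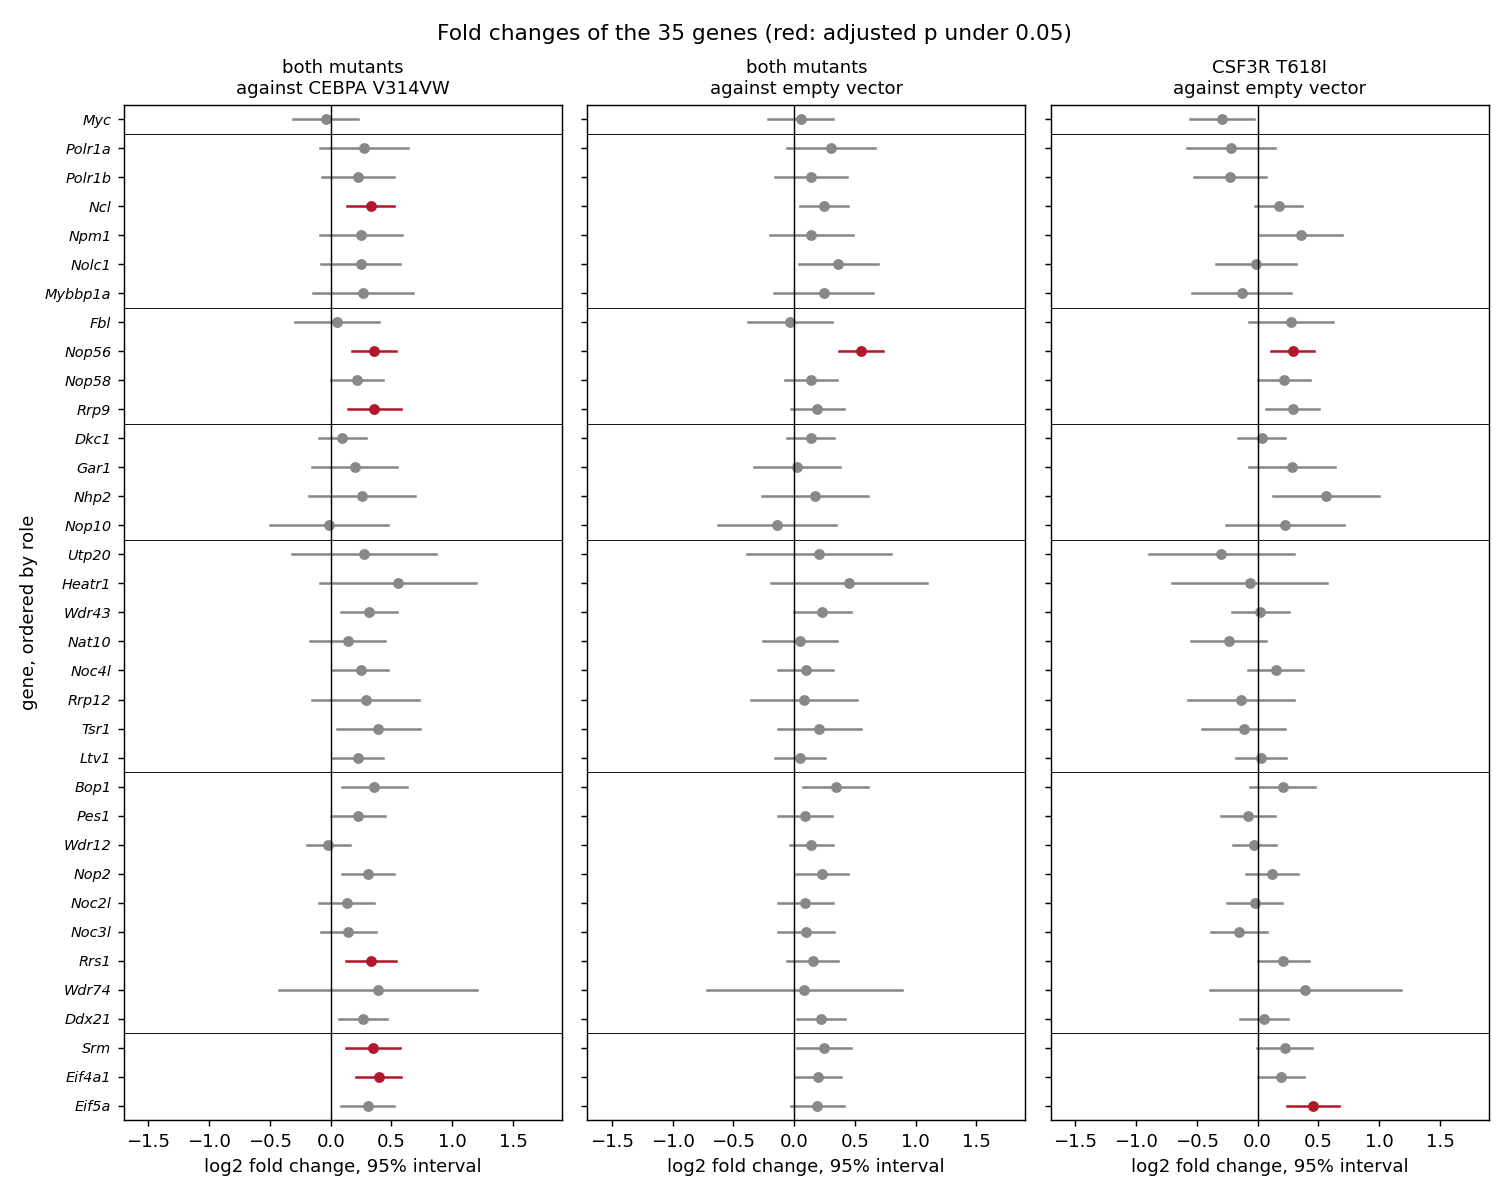
Log2 fold change (point) and 95% interval (line) of the 35 genes, ordered by role, in 3 comparisons, with genes at adjusted p under 0.05 in red. In the comparison of both mutants with CEBPA V314VW 32 of 35 points lie above 0 and 6 are red, with both mutants against empty vector 33 lie above 0 and 1 is red, and with CSF3R T618I against empty vector 21 lie above 0 and 2 are red.

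Cells with both mutants were also compared with empty vector, a comparison that uses the same 3 libraries with both mutants. Of the 35 genes 1 rose, Nop56, and 0 fell (8 and 0 at an unadjusted p under 0.05, which 31.1% of all tested genes had, and 2 and 0 with DESeq2), where 10.7% of all tested genes rose and 10.7% fell. The log2 fold change of Nop56 was 0.55 ± 0.08 (1.47-fold, adjusted p = 0.000304), and it passed under all 21 alternatives with values between 0.49 and 0.58. The mean with both mutants was 733 ± 18.6 CPM, against 499.8 ± 27.9 CPM with empty vector (SD, n = 3 each). The median of the list was 0.15, against 0.01 over all tested genes, and 33 genes were positive, the exceptions being Fbl (-0.04), the methyltransferase of box C/D snoRNPs, and Nop10 (-0.14). For 17 genes every library with both mutants lay above every empty vector library, as for 23.1% of all tested genes. The nearest genes to the threshold were Bop1 (0.34, adjusted p = 0.0679), and Ncl (0.25, adjusted p = 0.0739). With limma voom 11 genes rose and 0 fell, where 15.7% of all tested genes rose. Without CSF3R T618I library A 4 rose (12.1% of all tested genes), and without CSF3R T618I library C 6 rose (13.6%).

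CEBPA V314VW on its own was compared with empty vector. Of the 35 genes 0 rose and 0 fell by edgeR, where 9.50% of all tested genes rose and 7.68% fell. At an unadjusted p under 0.05, 1 was higher and 1 lower by edgeR, 2 higher and 3 lower by DESeq2, and 2 higher and 2 lower by limma voom, where 27.6% of all tested genes had such a p by edgeR, and none passed adjustment with either of those tools. The median was -0.09, against 0.00414 over all tested genes, and 29 genes were negative. Without overlap, 3 genes lay above (Myc, Nop56 and Wdr12) and 4 below (Rrp9, Ltv1, Pes1 and Eif4a1), where 18.5% of all tested genes lay above and 16.8% below. Apart from Wdr74, 95% intervals reached no lower than -0.74 and no higher than 0.54, both for Heatr1. Eif4a1 had the lowest value after Rrp12 and Wdr74, at -0.20 (95% interval -0.39 to -0.01, adjusted p = 0.154). Across the 4 groups CEBPA V314VW had the lowest mean for 23 of the 35 genes (26.4% of all tested genes) and the combination had the highest for 22 (19.8% of all tested genes).

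CSF3R T618I on its own was compared with empty vector. Of the 35 genes 2 rose, Eif5a and Nop56, and 0 fell (8 and 1 at an unadjusted p under 0.05, which 33.0% of all tested genes had, 4 and 0 with DESeq2, 1 and 0 with limma voom), where 10.0% of all tested genes rose and 9.66% fell. Eif5a (ENSMUSG00000078812, chromosome 11, 69916714 to 69921958) had 3889.5, 3871 and 3924 CPM with both mutants, 5106, 4807 and 4111 CPM with CSF3R T618I, 3325, 2995 and 3149 CPM with CEBPA V314VW, and 3087, 3367 and 3774 CPM with empty vector. All CSF3R T618I libraries exceeded the other 9, and the log2 fold change over empty vector was 0.46 ± 0.10 (1.37-fold, adjusted p = 0.00608), which passed under 20 of 21 alternatives. That of Nop56 was 0.29 ± 0.08 (1.22-fold, adjusted p = 0.0275), which passed under 8 of 21 and had an adjusted p of up to 0.330. These 2 genes lay above without overlap and Myc lay below, where 14.4% of all tested genes lay above and 15.0% below. With total counts 1 lay above and 4 below, where 10.2% and 22.3% of all tested genes did. The median of the list was 0.05, against 0.01 over all tested genes. With total counts the medians were -0.06 for the list and -0.10 over all tested genes, so the whole table moved by about as much as the list, and 1 gene of the list rose (Eif5a) and 1 fell (Myc).

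In this comparison the values followed the length of the genes. All 7 genes with a coding sequence under 1000 bases (Npm1, Fbl, Gar1, Nhp2, Nop10, Srm and Eif5a) had positive values, with a median of 0.28. Of the 8 genes of 2500 bases or more (Polr1a, Polr1b, Mybbp1a, Utp20, Heatr1, Nat10, Rrp12 and Ddx21), 7 had negative values, with a median of -0.18. As a description across the 35 genes, which share libraries and are not independent, the log2 fold change correlated with log2 coding length at Pearson's r = -0.736 and Spearman's rho = -0.770, against -0.207 and -0.372 over the 9571 genes with a known coding length and a mean above 5 CPM. By role the median was 0.25 for box H/ACA genes, 3 of 4 of them under 1000 bases, and -0.09 for small subunit genes, 4 of 8 of them with 2500 bases or more. Libraries of a group also differed by length. The slope of a library's deviation from its group mean, in log2 units per doubling of coding length over the 35 genes, was between -0.01 and 0.01 in the libraries with both mutants. It was -0.23, -0.03 and 0.26 in CSF3R T618I libraries A, B and C, -0.11, 0.07 and 0.03 in CEBPA V314VW libraries A, B and C, and 0.15, -0.03 and -0.12 in empty vector libraries A, B and C. The spread of single genes was likewise widest with CSF3R T618I. The median coefficient of variation over 34 genes, Wdr74 left out, was 2.20% with both mutants, 15.3% with CSF3R T618I, 6.26% with CEBPA V314VW and 6.95% with empty vector. Nhp2, a box H/ACA core protein, had 503, 428 and 275 CPM in CSF3R T618I libraries A, B and C, and Heatr1 had 127, 197 and 345 CPM in the same libraries, in the opposite order.

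Leaving out CSF3R T618I library C changed this comparison most. Then 8 genes rose (Npm1, Fbl, Nop56, Rrp9, Gar1, Nhp2, Rrs1 and Eif5a) and 8 fell (Myc, Polr1a, Polr1b, Mybbp1a, Utp20, Nat10, Rrp12 and Noc3l), in a fit where 18.1% of all tested genes rose and 20.7% fell. Without CSF3R T618I library A 4 rose (8.52% of all tested genes rose). Only 1 rose without CSF3R T618I B, empty vector B, CEBPA V314VW C or any library with both mutants, where 7.07% to 8.67% of all tested genes rose. With each library's trend over coding length taken out, an alternative added after seeing the data, 6 rose and 1, Myc, fell, where 12.8% of all tested genes rose and 11.9% fell. The part of gene length in the values of CSF3R T618I was not tested further.

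**Figure D4:**
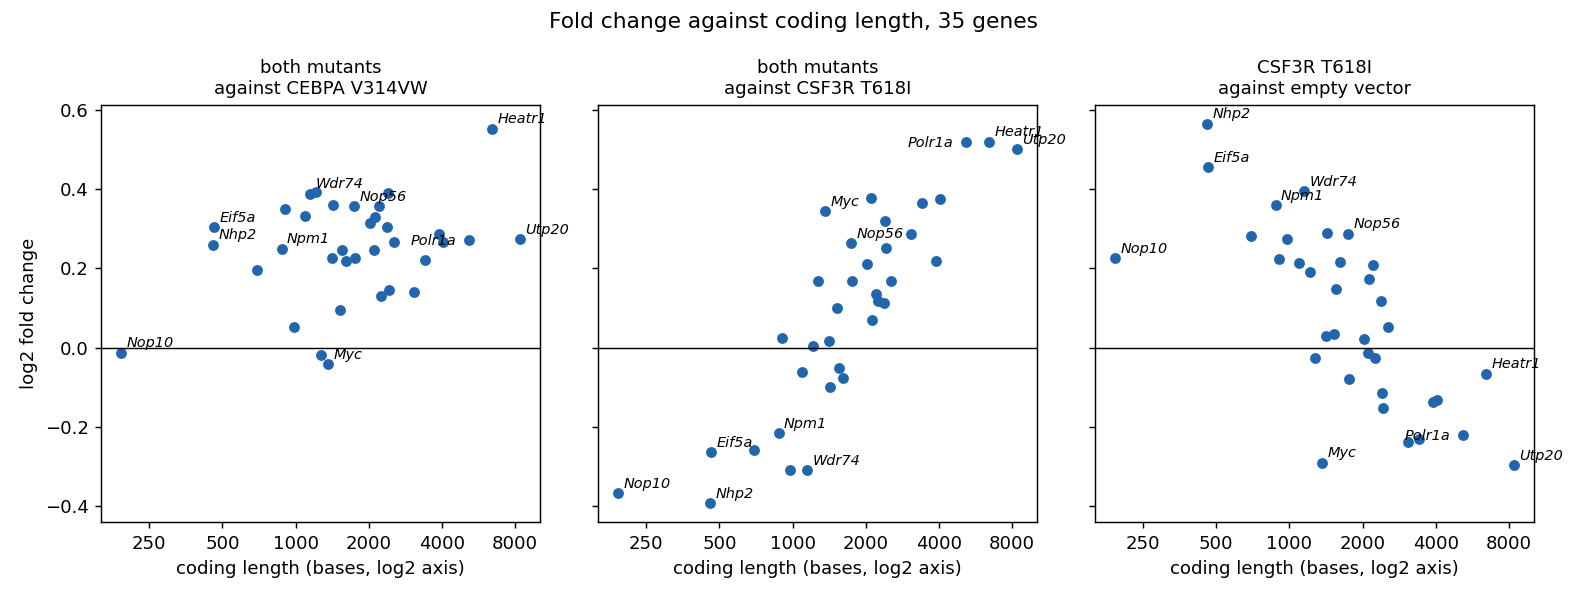
Log2 fold change of each of the 35 genes (points) against its coding length (bases, log2 axis) in 3 comparisons. Points fall with length for CSF3R T618I against empty vector (r = -0.736), climb for both mutants against CSF3R T618I (r = 0.867) and show a weaker relation for both mutants against CEBPA V314VW (r = 0.329).

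Cells with both mutants were compared with cells with CSF3R T618I to find what the CEBPA mutant adds. Of the 35 genes 2 rose, Nop56 (0.26 ± 0.08, adjusted p = 0.0433) and Polr1a (0.52 ± 0.17, adjusted p = 0.0480), and 0 fell, where 8.43% of all tested genes rose and 10.1% fell. At an unadjusted p under 0.05, 6 were higher and 1 lower, where 33.0% of all tested genes had such a p in either direction. DESeq2 gave the same 2 genes after adjustment. With limma voom both were lost (Polr1a adjusted p = 0.0526, Nop56 adjusted p = 0.0597), and the 2 genes that rose were Myc and Nolc1. Polr1a (ENSMUSG00000049553, chromosome 6, 71909053 to 71984935), the largest subunit of RNA polymerase I, had 124, 107 and 120.2 CPM with both mutants, 63.6, 80.6 and 101 CPM with CSF3R T618I, 87.2, 105 and 99.4 CPM with CEBPA V314VW, and 115, 87.9 and 82.2 CPM with empty vector. The libraries with both mutants lay above those with CSF3R T618I and overlapped those with empty vector. For 8 genes the libraries with both mutants lay above without overlap, as for 15.9% of all tested genes, and for 1, Eif5a, below, as for 19.3% of all tested genes. With total counts 18 genes lay above (22.5% of all tested genes) and 0 below (13.3%). The values followed coding length more closely than in any other comparison of 2 groups (r = 0.867, rho = 0.845, against 0.295 and 0.440 over 9571 genes). All 8 genes of 2500 bases or more were positive (median 0.37), and 6 of the 7 genes under 1000 bases were negative (median -0.26), Srm being the exception at 0.02. Eif5a was negative at -0.26 (adjusted p = 0.0876). Without CSF3R T618I library C 16 genes rose and 5 fell (Fbl, Gar1, Nhp2, Nop10 and Eif5a), in a fit where 20.9% of all tested genes rose and 19.5% fell. In the other fits 0 rose without CSF3R T618I A or B, without any library with both mutants, without empty vector B or without CEBPA V314VW C. In those fits 6.02% to 7.54% of all tested genes rose. Without CEBPA V314VW B 1 rose (7.81% of all tested genes). Polr1a passed under 10 of 21 alternatives and Nop56 under 9.

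The interaction asked whether the effect of CSF3R T618I differed with and without CEBPA V314VW. None of the 35 genes passed by edgeR (0 higher and 0 lower, where 0.501% of all tested genes were higher and 1.27% lower). At an unadjusted p under 0.05, 2 were higher and 0 lower by edgeR, 4 and 0 by DESeq2 and 7 and 0 by limma voom, where 11.1% of all tested genes had such a p by edgeR, and none passed adjustment with either of those tools. The median interaction was 0.16 on the log2 scale, against -0.04 over all tested genes, and 28 genes were positive. The value increased with coding length (r = 0.891, rho = 0.867, against 0.324 and 0.423 over 9571 genes), with a median of -0.15 for the 7 short genes and 0.44 for the 8 long ones. Without CSF3R T618I library C 9 genes were higher, Polr1a, Polr1b, Nolc1, Mybbp1a, Heatr1, Rrp12, Tsr1, Pes1 and Noc3l, in a fit where 6.17% of all tested genes were higher and 4.46% lower. For Myc the interaction was 0.25 (95% interval -0.13 to 0.62, adjusted p = 0.599).

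Other genes of the pathway were read from lists. With both mutants against CEBPA V314VW, where 7.79% of all tested genes rose and 10.1% fell, 5 rose and 1 fell of 42 other small subunit processome genes (median 0.18), 6 rose and 1 fell of 46 other large subunit genes (0.20), 5 rose of 37 translation initiation factors (0.16), and 10 rose and 1 fell of 35 other known MYC targets (0.23). The median over all tested genes was -0.02. In lists left out above 0 of 22 RNA polymerase III genes rose (median 0.06), 1 of 12 polyamine synthesis and hypusination genes (0.05), 4 of 28 nucleotide synthesis genes (0.16) and 2 of 16 other snoRNP genes (0.19). None of them fell. Of 19 other RNA polymerase I genes 0 passed by edgeR (2 higher and 0 lower at an unadjusted p under 0.05), 0 by DESeq2 and 2, both higher, by limma voom, with a median of 0.13. Bysl, a small subunit factor, rose by 0.48 (adjusted p = 0.00201), and Gnl3, the nucleolar GTPase nucleostemin, rose by 0.39 (adjusted p = 0.00516). Of 79 cytosolic ribosomal protein genes 0 passed by edgeR, DESeq2 or limma voom, and 0 had an unadjusted p under 0.05 by any of them, with a median of -0.03. In the comparison of CSF3R T618I with empty vector, 2 of those 79 rose and 0 fell by edgeR, where 10.0% of all tested genes rose. At an unadjusted p under 0.05 by edgeR 45 were higher and 0 lower, where 33.0% of all tested genes had such a p in either direction. By DESeq2 8 rose (11.5% of all tested genes), and by limma voom 0 (6.86%). The median of the 79 was 0.55, against 0.01 over all tested genes. Their summed level was 32179, 25939 and 17117 CPM in CSF3R T618I libraries A, B and C. In empty vector libraries A, B and C it was 13772, 17237 and 21886 CPM, so CSF3R T618I library C lay within that range. The part of gene length in these values was not tested. The rise in other known MYC targets was not particular to cells with both mutants. For CSF3R T618I against empty vector 9 rose and 1 fell of the 35 other known MYC targets (median 0.24), where 10.0% of all tested genes rose and 9.66% fell. There 5 of 37 translation initiation factors (0.18), 5 of 46 other large subunit genes (0.08) and 4 of 42 other small subunit processome genes (0.05) rose. The counts of the subunit lists lay near the 10.0% of all tested genes, whose median was 0.01. Of 20 mitosis genes 5 rose with both mutants against CEBPA V314VW (7.79% of all tested genes), and 10 rose in the comparison of CSF3R T618I with empty vector (10.0% of all tested genes), 0 falling in either. Of 20 DNA replication and G1/S genes 2 rose in the former comparison (median 0.12) and 6 in the latter (0.18), 0 falling in either. Of 12 genes of the MYC network, proteins that pair with MAX or MLX, 4 rose and 1 fell with both mutants against CEBPA V314VW, and the MYC relative Mycn had the lowest adjusted p. It averaged 42.5 ± 2.27 CPM with both mutants, 34.1 ± 3.36 CPM with CSF3R T618I, 14.5 ± 0.962 CPM with CEBPA V314VW and 21.8 ± 3.39 CPM with empty vector (SD, n = 3 each). The log2 fold change of Mycn for both mutants over CEBPA V314VW was 1.55 ± 0.12 (adjusted p = 2.37e-06). It rose with CSF3R T618I (0.65, adjusted p = 0.00209) and fell by 0.59 with CEBPA V314VW (adjusted p = 0.00437), each against empty vector, and passed in the interaction (0.91 ± 0.17, adjusted p = 0.0177), though not without library B or C with both mutants (adjusted p up to 0.0636). Mxd4, a repressor that pairs with MAX, had 6.71 to 7.64 CPM with both mutants, 6.67 to 8.45 CPM with CSF3R T618I, 15.7 to 17.6 CPM with CEBPA V314VW and 12.8 to 13.9 CPM with empty vector. It fell by 1.21 on the log2 scale with both mutants against CEBPA V314VW (adjusted p = 1.02e-05).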

How the data were processed

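The deposited table held raw read counts per gene from RNA-seq of 12 libraries, with no normalization. The authors trimmed reads with Trimmomatic and aligned them with STAR, and the submitters' processing notes also name DESeq2 and the mm10 build. The sources used here name no counting program, annotation release or strand setting. Libraries were made with a kit that amplifies cDNA by PCR, so counts are not independent molecules.

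Of 51918 lines 6 repeated a gene with identical counts and were dropped. Of the symbols 1825 were blank and 26 had become dates, and 1776 were filled from a name table. Genes were filtered with filterByExpr by group, which left 16360 genes holding at least 99.95% of the counts. They were tested with edgeR 4.0.16 (TMM scaling, robust quasi-likelihood F test, all 12 libraries in 1 fit, common biological coefficient of variation 0.166), the interaction included. Intervals are 95% intervals of the log2 fold change. Coding length, the longest coding sequence in GENCODE, was matched to 80.3% of tested genes. Pairs of replicates were compared by chi-square of their counts, which takes reads as independent. Per degree of freedom it was 4.11 to 6.91 with both mutants and 9.13 to 331 in the other groups. All 12 libraries were kept as separate replicates, as the labels have them, and whether any share an RNA sample was not tested.

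Members and gene lists were chosen with earlier results of these data known. Named with the value of each library were Myc, the gene of each role with the highest mean CPM, and up to 3 genes per comparison and direction with the lowest adjusted p among those that passed. Heatr1, Nhp2 and the other genes given single values were chosen after their values were seen. Genes of other lists were named by lowest adjusted p. Alternatives were DESeq2 1.42.0, limma 3.58.1 voom with a weight per group, other scalings, no filter, a fit of the compared groups only, a replicate block, length trends taken out, and each library left out. The edgeR fit was also run on simulated counts with the same spread in every library and no trend over gene length. Since these data have both, that run cannot show how the test behaves with groups of unequal spread. Marker, mitosis and other gene lists served only for counts, medians and levels.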

Additional observations from a re-analysis of the deposited data

Results flagged for a closer look

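The effect of CSF3R T618I on Mycn, a relative of MYC outside the 35 genes, differed with and without CEBPA V314VW. The interaction was 0.91 ± 0.17 on the log2 scale by edgeR's quasi-likelihood test (adjusted p = 0.0177, n = 3 each), and over 20 alternatives it lay between 0.803 and 0.996 (adjusted p 6.65e-05 to 0.0636). It passed in 18 of them, the exceptions being the fits without library B (adjusted p = 0.0612) or library C (adjusted p = 0.0636) with both mutants. Only the 35 genes and Mycn, Mxd4, Bysl and Gnl3 were considered for this section. Among 12 polyamine synthesis and hypusination genes 1 was lower in the interaction, where 1.27% of all tested genes were.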

How the results depend on the processing

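With 3 libraries per group the median SE of a log2 fold change was 0.107, and 0.151 for the interaction. No result that passed in either of the settings compared changed direction, and of 4375 results of the 35 genes 4116 kept their side of the threshold, 73 lost it and 186 gained it. A threshold on the log2 fold change of 1 left 0 genes in every comparison. For CSF3R T618I against empty vector, where 2 rose, 4 rose with DESeq2 (11.5% of all tested genes rose). With the transcript length trend taken out 3 rose (13.1%), and 6 with the coding length trend taken out (12.8%). Total counts (7.52%), no filter (8.50%), limma voom (6.86%) and the replicate block (8.23%) gave 1 each, and the compared groups only 0 (5.87%). With total counts 1 fell (15.0% of all tested genes fell), and with the coding length trend taken out 1 fell (11.9%). For CEBPA V314VW against empty vector 1 fell, Eif4a1, with the coding length trend taken out (9.94% of all tested genes fell). For both mutants against empty vector, where 1 rose, the counts were 2 with DESeq2 (11.7% of all tested genes rose), 7 with the compared groups only (14.4%) and 11 with limma voom (15.7%). They were 9 with the transcript length trend (13.5%) and 9 with the coding length trend taken out (13.4%). For both mutants against CEBPA V314VW, where 6 rose, they were 11 with DESeq2, 2 with total counts or no filter and 3 with the replicate block. They were 24 with the compared groups only (14.9% of all tested genes rose) and 18 with limma voom (13.6%). They were 17 with the transcript length trend and 21 with the coding length trend taken out (11.1% for the latter). Over these settings the share of all tested genes that rose ran from 6.43% with total counts to 14.9% with the compared groups only. For both mutants against CSF3R T618I, where 2 rose, the counts were 6 with total counts (11.4% of all tested genes rose) and 4 with the transcript length trend taken out (10.4%). They were 1 with no filter (7.41%), 0 with the compared groups only (6.56%) and 0 with the replicate block (7.24%). The cause was not tested. Total counts moved the calls over all tested genes to 7.52% higher and 15.0% lower for CSF3R T618I against empty vector, 6.43% and 13.1% for both mutants against CEBPA V314VW, and 11.4% and 7.84% for both mutants against CSF3R T618I. With each library left out in turn, 1 to 8 rose and 0 to 8 fell for CSF3R T618I against empty vector, 0 rose and 0 fell for CEBPA V314VW against empty vector, 1 to 6 rose and 0 fell for both mutants against empty vector, 1 to 13 rose and 0 fell against CEBPA V314VW, 0 to 16 rose and 0 to 5 fell against CSF3R T618I, and 0 to 9 were higher and 0 lower for the interaction. Each highest count above 0 came without CSF3R T618I library C. In those fits 18.1% of all tested genes rose and 20.7% fell for CSF3R T618I against empty vector. With both mutants 13.6% rose against empty vector, 10.9% rose against CEBPA V314VW, and 20.9% rose and 19.5% fell against CSF3R T618I. For the interaction 6.17% were higher. Replicate letters were not taken as pairs, since no source says that they mark a shared mouse or experiment. Of 18 same-letter pairs 5 correlated over 0.1 (range -0.738 to 0.632), and empty vector A and CSF3R T618I C correlated at 0.801. The correlated deviations also followed coding length, so they cannot show whether letters are paired.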
